A study of Drosophila melanogaster with 3 samples.

Results

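The conservative peak list of croc-eGFP in whole Drosophila melanogaster embryos held 3650 peaks, of which 699 lay on the X chromosome. These 699 regions were chosen by chromosome name alone, and each was placed by its summit, the base that the peak caller marked as the centre of the signal. They were set against the 2945 peaks of the same list on the autosomal arms (2L, 2R, 3L, 3R and 4). The lists of replicates 1, 2 and 3 held 637, 439 and 347 X peaks out of 3198, 2433 and 1822 peaks.

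The protein encoded by crocodile (croc) is a forkhead-domain transcription factor that is needed for the anterior head and pharynx of the embryo. Many forkhead proteins read short AT-rich words of DNA with similar preferences. The X chromosome of the fly is present as a pair in females and as a single copy in males. In males, the MSL complex of proteins and roX RNAs binds along the bodies of active X genes and raises their transcription. Long genes on any arm keep many of their regulatory sequences in introns.

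The flies expressed croc as a fusion with enhanced green fluorescent protein (eGFP), and the chromatin it bound was pulled down with an anti-GFP antibody and sequenced (ChIP-seq). All 3 samples are biological replicates of 1 group: whole embryos of the croc-GFP strain, aged 0 to 18 h, sonicated to fragments of 200 to 800 bp. A peak cannot be placed in a tissue or a stage, since all cells and ages were pooled. Per the labels, sex was not collected, so the number of X copies per cell in these libraries is not known, and control libraries were not analysed here.

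Sequences at X summits are shown for the strongest peaks, because they carry the DNA that the rest of the comparisons describe. The 8 windows below reach 50 bp to either side of the summit, are read on the plus strand of dm6 (sequence from RefSeq, Release 6) and hold no annotated exon base. Capitals mark a forkhead word, searched on either strand: the word TGTTTAC, the same word ending in T (written TGTTTAT), and both with A as the second letter (written TATTTAC for the first form and TATTTAT for the other).
ph-p, promoter, chrX:2137291-2137391: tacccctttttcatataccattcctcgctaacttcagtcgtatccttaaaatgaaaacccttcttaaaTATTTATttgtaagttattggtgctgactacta
CG32772, intron, chrX:4910315-4910415: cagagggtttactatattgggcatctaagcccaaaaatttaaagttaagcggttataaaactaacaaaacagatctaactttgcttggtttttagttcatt
Tlk, intron, chrX:3742172-3742272: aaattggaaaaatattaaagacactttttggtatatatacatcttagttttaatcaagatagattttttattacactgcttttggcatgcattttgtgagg
CG3726, intron, chrX:5918862-5918962: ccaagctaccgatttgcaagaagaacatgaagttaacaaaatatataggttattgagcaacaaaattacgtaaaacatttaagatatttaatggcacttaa
LPCAT, intron, chrX:9579245-9579345: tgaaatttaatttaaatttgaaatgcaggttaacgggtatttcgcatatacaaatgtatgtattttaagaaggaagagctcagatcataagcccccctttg
Atf3, promoter, chrX:1275464-1275564: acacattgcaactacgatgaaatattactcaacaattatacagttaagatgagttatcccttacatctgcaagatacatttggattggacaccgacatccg
org-1, promoter, chrX:8455379-8455479: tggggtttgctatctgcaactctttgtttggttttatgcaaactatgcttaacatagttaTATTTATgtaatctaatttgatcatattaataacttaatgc
elav, promoter, chrX:523442-523542: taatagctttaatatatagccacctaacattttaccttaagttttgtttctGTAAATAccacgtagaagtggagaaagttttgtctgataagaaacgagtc
A forkhead word was found in 3 of the 8 windows, at ph-p, org-1 and elav, and none was found in the other 5. Over all X summits the share was 21.6%, and over all X windows of that length it was 12.9%. The 8 windows were rich in A and T, from 63.4% at Atf3 to 74.3% at Tlk, where the windows of all X summits were 66.8% A or T. The 7 stronger X peaks that were passed over had exon bases in their windows.

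Croc-eGFP peaks on X lay in introns more often than peaks on the autosomes did, and less often at promoters and between genes. Introns held 49.9% of X peaks (349 of 699, exact 95% interval 46.2 to 53.7) against 34.7% of autosomal peaks (1022 of 2945, 33.0 to 36.4), an odds ratio of 1.88 (2-sided Fisher's exact test over peaks, adjusted over 7 classes, p = 1.19e-12). Promoters, here within 500 bp of a protein-coding transcription start site (TSS), held 34.9% of X peaks (244) against 41.9% of autosomal peaks (1234), with an odds ratio of 0.744 and an adjusted Fisher's exact p of 0.00165. Sequence between genes held 10.9% of X peaks (76) against 19.9% of autosomal peaks (585), with an odds ratio of 0.492 and an adjusted Fisher's exact p of 2.89e-08. Peaks were the units of these tests, so the p-values describe this list and not the spread between embryos.

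Each replicate list showed the same directions. In introns lay 52.0%, 48.3% and 49.3% of X peaks in replicates 1, 2 and 3, against 36.7%, 32.8% and 32.2% of autosomal peaks. The lowest X value was above the highest autosomal value, and the difference averaged 15.9 ± 0.969 percentage points (SD, n = 3). An exact sign-flip permutation over 3 replicates cannot give a p below 0.25, and it gave that value here. Promoters held 37.0% ± 3.00 of X peaks and 44.3% ± 4.25 of autosomal peaks (SD, n = 3), and intergenic sequence held 9.32% ± 0.586 of X peaks and 18.4% ± 1.94 of autosomal peaks. The promoter difference of −7.28 ± 1.38 points and the intergenic difference of −9.05 ± 1.44 points also had a sign-flip permutation p of 0.25. The intergenic ranges of X and autosomes did not overlap between replicates. For promoters, the highest X share, 39.2% in replicate 3, lay just under the lowest autosomal share, 39.6% in replicate 1.

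**Figure D1:**
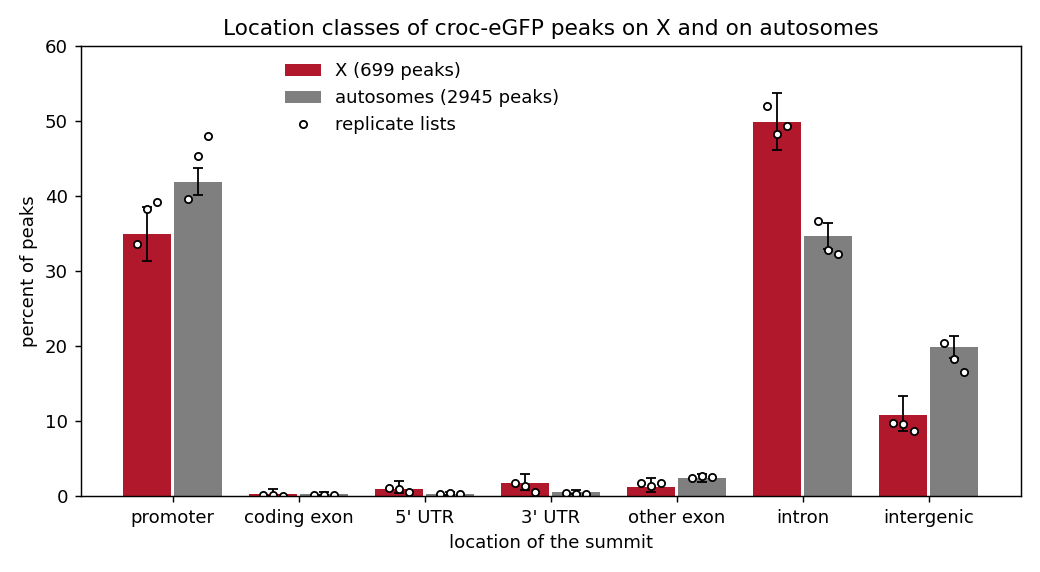
Percent of peaks (y axis) by location of the summit (x axis) on X (red, 699 peaks) and on autosomes (grey, 2945 peaks). Bars are the conservative list with exact 95% intervals, which cover counting error only, and open circles are replicates 1, 2 and 3 from left to right. The intron bar is higher on X (49.9% against 34.7%) and the promoter and intergenic bars are lower.

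The exon classes outside promoters were small. The 3' UTRs held 12 X peaks (1.72%) against 15 autosomal peaks (0.509%, adjusted Fisher's exact p = 0.00404), and 5' UTRs held 7 (1.00%) against 10 (0.340%, adjusted p = 0.0423). These calls did not hold under every setting: that on 3' UTRs was lost among peaks shared with all 3 replicates (adjusted Fisher's exact p = 0.383), and that on 5' UTRs was lost there too (adjusted p = 0.220). Coding exons held 2 X peaks against 9 autosomal peaks (adjusted Fisher's exact p = 1), and other exons held 9 (1.29%) against 70 (2.38%, adjusted p = 0.0966). The strongest exonic X peak outside CG4004 was in the 5' UTR of baz, which encodes the polarity protein Bazooka (Par-3), which ranked 50 in the list (signal 1202).

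X and autosomes differ in how much of their sequence is intron, so peaks were also counted per Mb of each class. Introns make up 40.8% of X bases and 36.3% of autosomal bases by the same class order. Per Mb of intron, X held 36.4 peaks and the autosomes 25.5, a ratio of 1.42 (2-sided exact binomial test of the X share of peaks against the X share of bases, adjusted over 7 classes, p = 2.39e-07). The ratio was 1.47, 1.37 and 1.51 in replicates 1, 2 and 3 (mean 1.45 ± 0.0722 SD, exact sign-flip permutation p = 0.25).

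The density of promoter peaks did not differ between X and the autosomes by the same test. X held 94.1 peaks per Mb of promoter sequence and the autosomes 96.9, a ratio of 0.972 (adjusted exact binomial p = 0.820), and the replicate ratios averaged 0.971 ± 0.0588 (SD, n = 3) with values on both sides of 1. Between genes the density was 15.7 per Mb on X and 20.6 on the autosomes, a ratio of 0.761 that did not pass the test (adjusted exact binomial p = 0.0555). The replicate ratios for intergenic sequence were 0.697, 0.685 and 0.726, all under 1. Intergenic bases make up 20.6% of X and 25.8% of the autosomes.

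Among single arms, X had the highest intron density and the highest intron share of peaks. The intron density was 36.4 per Mb on X, against 28.2 on 2L, 25.7 on 2R, 28.1 on 3L and 22.7 on 3R. The intron share was 49.9% on X and from 33.0% on 2L to 36.7% on 3R among these other arms. The intergenic density did not set X apart in this way: 15.7 per Mb on X, 15.5 on 2R and 16.6 on 3R were close, while 2L had 25.3 and 3L had 24.4. Chromosome 4 had 9 peaks in all, none of them intronic. Mb bins of fewer than 40 protein-coding genes, most of them autosomal, were kept here, and single arms were not compared without them. Of the peaks outside promoters, 76.7% were intronic on X against 59.7% on the autosomes (odds ratio 2.22, Fisher's exact p = 9.00e-12).

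**Figure D2:**
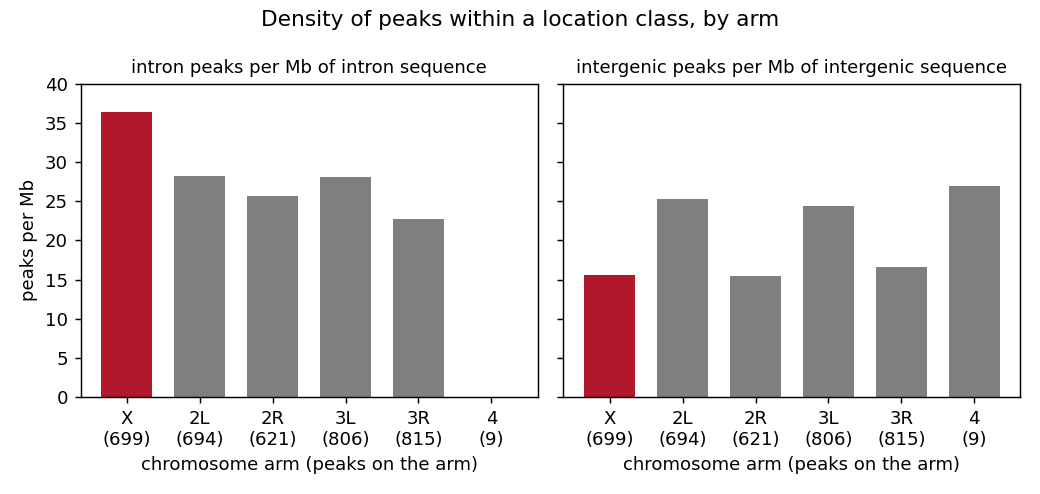
Intron peaks per Mb of intron (left) and intergenic peaks per Mb of intergenic sequence (right) for X (red) and each autosomal arm (grey), with the number of conservative peaks on the arm in brackets. X has the tallest intron bar (36.4) and an intergenic bar (15.7) near those of 2R and 3R. Gene-poor parts of the arms are included.

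The difference in intron density was seen at every distance from a TSS and in longer host genes, in a split added after seeing the data. Introns over 500 and up to 2000 bp from a TSS held 61.4 peaks per Mb on X and 49.1 on the autosomes, a ratio of 1.25 (exact binomial p adjusted over the 7 strata = 0.0377). Over 2000 and up to 10000 bp from it the densities were 37.3 and 27.5 per Mb on X and autosomes (ratio 1.36, adjusted exact binomial p = 0.00188). Beyond 10000 bp they were 18.3 and 10.8 (ratio 1.70, adjusted exact binomial p = 0.00188). Whether the ratio itself changes with distance was not tested. Leaving out Mb bins of fewer than 40 protein-coding genes, most of them autosomal, lowered the ratio over all introns from 1.42 to 1.22. The split was not repeated without these bins.

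By host gene, the ratio was 1.62 for spans over 20 kb up to 50 kb (46.0 peaks per Mb on X, 28.4 on autosomes, adjusted exact binomial p = 7.97e-05). For spans over 50 kb it was 1.65 (26.7 on X, 16.2 on autosomes, adjusted exact binomial p = 5.73e-05). For spans of over 5 and up to 20 kb it was 1.31 (adjusted exact binomial p = 0.0348). In genes of at most 5 kb the densities were 26.8 and 26.2 on X and autosomes (ratio 1.02, adjusted exact binomial p = 0.856), but these genes held only 9 intron peaks on X. Peaks were the units of these tests, so peaks within the same gene were counted separately. Of the 124 X peaks in hosts over 50 kb, 14 were in kirre and 13 in CG1677. The split by host was not repeated with 1 peak per gene.

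**Figure D3:**
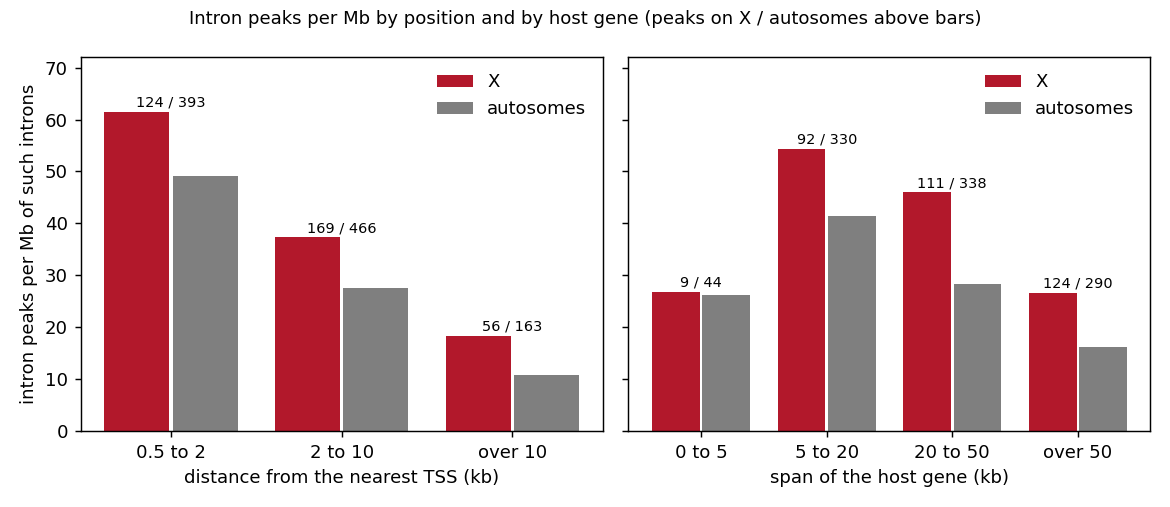
Intron peaks per Mb of intron (y axis) on X (red) and autosomes (grey), split by distance from the nearest TSS (left) and by the span of the host gene (right), both in kb. Numbers above the bars are peaks on X and on autosomes. The X bar is taller in every group except hosts of at most 5 kb, where 26.8 and 26.2 are nearly level.

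The intronic X peaks sat in 163 protein-coding host genes. They held 336 of the 349 peaks, or 2.06 per host, against 1002 autosomal intron peaks in 568 hosts, or 1.76 per host. Hosts were long on both, with a median span of 23371 bp on X and 20225 bp on the autosomes, where the median over all protein-coding genes was 2521 bp on X and 2102 bp on the autosomes. Genes over 20 kb held 69.9% of hosted intron peaks on X and 62.7% on autosomes, while such genes are 9.02% of X genes and 6.94% of autosomal genes. These are shares of genes by number, and long genes hold more intron: 4.65 Mb on X for spans over 50 kb, against 1.69 Mb for 5 to 20 kb. Per Mb of intron, genes over 50 kb had fewer peaks than those of 5 to 20 kb. The densities were 26.7 against 54.4 on X and 16.2 against 41.4 on autosomes. The host also had the nearest TSS for 76.2% of these X peaks and for 78.7% of the autosomal ones.

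The hosts with the most intron peaks were named after their values were seen. First among them, kirre, which encodes an immunoglobulin-domain adhesion protein of myoblast fusion, held 14 intron peaks over its 394149 bp (X 2740384 to 3134532). Their signals ran from 6.97 to 656.2, 4 of the 14 were shared with all 3 replicates, and 12 had no stronger summit within 1 median peak width. The strongest lay 2327 bp from a TSS and had signals of 293.7, 225.6 and 139.6 in the lists of replicates 1, 2 and 3. Next came CG1677 with 13, Raf (a kinase of the Ras pathway) with 9, the nuclear receptor gene Hr4 with 8 and the teneurin gene Ten-a with 8. Drak, CG43658 and Tlk had 7 each, the netrin gene NetA had 6 and the BMP antagonist gene sog had 5. CG1677 spans 124709 bp and contains other genes, and all 5 peaks assigned to brk, which encodes a repressor of Dpp target genes, were intronic in this larger gene.

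The strongest X peaks lay mostly at promoters and in introns. All of the 20 strongest were shared with all 3 replicates, 10 lay at promoters, 7 in introns, 2 in other exons and 1 in a 5' UTR. The top peak of X was also the top peak of the whole list: its summit (X 2703883) lay 31 bp from the TSS of Ugalt, which encodes a UDP-galactose transporter, and it ranked 1, 1 and 4 in replicates 1, 2 and 3. The Polycomb group gene ph-p had the second (X 2137341, signal 2767, ranks 4, 5 and 3) and the fifth (X 2137931, signal 1372, ranks 34, 28 and 26). Both ph-p summits lay inside the gene. CG32772 had the third, in its intron 1263 bp from the TSS (signal 1791, ranks 18, 14 and 17). Tlk had the fourth (X 3742222, signal 1490, ranks 37, 24 and 34), in an intron 2325 bp from the nearest of its start sites. The gene spans X 3720007 to 3789770 on the plus strand, so this summit was not near the gene's first base. The Tousled-like kinase made by Tlk acts in chromatin assembly.

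The rest of the 20 included genes of regulators and of metabolism. Atf3, a bZIP transcription factor gene, had a promoter peak with a signal of 1022 and ranks of 75, 84 and 104 in replicates 1, 2 and 3. org-1, a T-box gene of muscle development, had a promoter peak with a signal of 1009, whose ranks of 52, 77 and 248 spanned the widest range of the 20. elav, which encodes a neuronal RNA-binding protein, had a promoter peak 266 bp from its TSS (X 523492) inside the neighbouring gene arg, with a signal of 918.9 and ranks of 97, 94 and 163. NFAT and gce, a juvenile hormone receptor gene, had intron peaks with signals of 854.5 and 853. The housekeeping-type genes TRAM (protein translocation at the endoplasmic reticulum, 1132), MFS10 (a transporter, 1041) and Gapdh2 (glycolysis, 796.7) had promoter peaks, and LPCAT (phospholipid synthesis, 1154) and CG3726 (1196) had intron peaks. The calcium-binding protein gene CBP had a promoter peak of 859.3. Both CG4004 peaks, with signals of 1345 and 1236, lay in exons of non-coding transcripts 5034 and 6054 bp from its TSS.

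**Figure D4:**
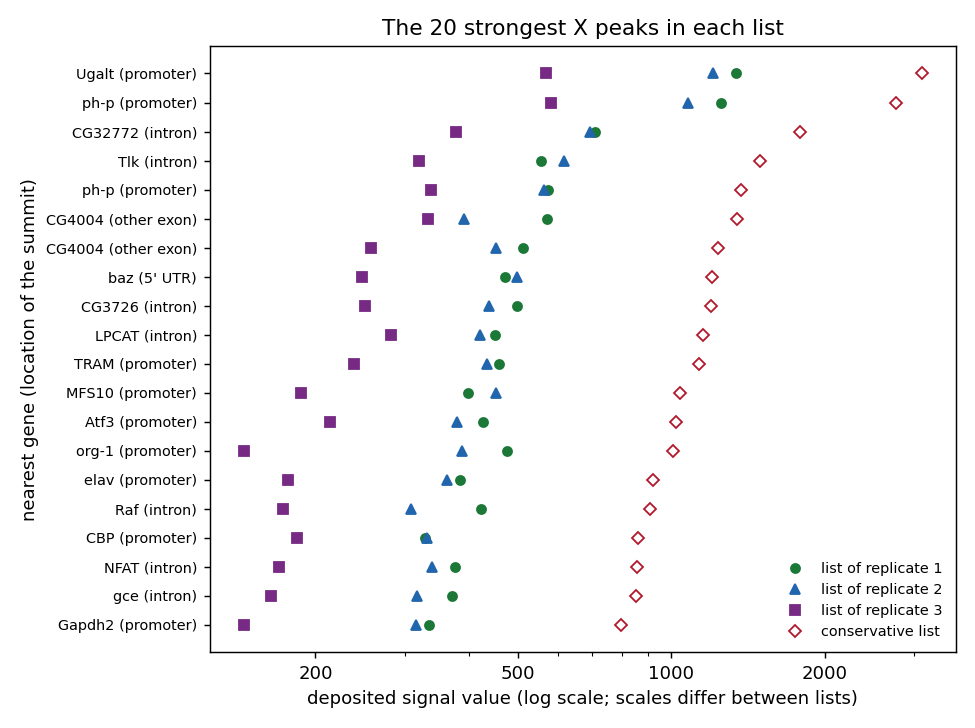
Deposited signal (x axis, log scale) of the 20 strongest X peaks (y axis, nearest gene and location of the summit) in the conservative list (open diamonds) and in the lists of replicates 1 (circles), 2 (triangles) and 3 (squares). Scales differ between lists, so only the order within a list can be read; Ugalt and ph-p lead in all of them.

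On X, the genes with the most assigned peaks carried peaks of unequal strength along an intron or a set of promoters. Each summit counted for the protein-coding gene whose TSS was closest to it, up to 10 kb away. Tlk had 8, of which 7 were intronic, with signals from 38.8 to 1490, and 4 were shared with all 3 replicates. The weakest lay beside a stronger summit and shared its replicate summit, so Tlk had 7 separate summits. Raf had 7, all shared with all 3 replicates, between 834 and 8661 bp downstream of its TSS, with signals of 396.2, 57.4, 909.7, 304, 656, 354.5 and 291.2 in order along the gene. The summit with 57.4 lay within 1 median peak width of the one with 396.2 and shared its replicate summit, so the Raf peaks are 6 separate summits. CHES-1-like, itself a forkhead gene, had 7 with signals from 3.60 to 787.6, of which 2 lay at promoters and 5 in introns. Here too the weakest lay beside a stronger summit, which leaves 6. CG43658 had 7 intron peaks of at most 221.1, or 6 separate summits, and 1 of them was shared with all 3 replicates. Ptpmeg2, a tyrosine phosphatase gene, had 6, of which 5 lay at promoters of its several start sites with signals from 124.7 to 694.1.

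More X genes carried a peak than autosomal genes did, by a small margin that was not seen with promoter peaks alone. Of 2196 protein-coding X genes 381 (17.3%) had an assigned peak, against 1785 of 11749 (15.2%) on the autosomes, with an odds ratio of 1.17 (2-sided Fisher's exact p = 0.0112). With promoter peaks only the shares were 9.43% on X and 9.33% on the autosomes (Fisher's exact p = 0.873). The call was also lost among peaks shared with all 3 replicates (difference 1.14 points, Fisher's exact p = 0.0728) and among those shared with replicates 2 and 3 (1.03 points, p = 0.108). In the replicate lists 17.3%, 13.4% and 10.5% of X genes had a peak, against 14.1%, 11.8% and 9.32% of autosomal genes. Of the genes with a peak, 57 of 381 on X (15.0%) and 168 of 1785 on the autosomes (9.41%) had 3 or more. The odds ratio was 1.69 (unadjusted Fisher's exact p = 0.00216). Weak entries beside a stronger summit were counted here, and genes were not matched for length.

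Among the genes that count and compensate X, Sxl, the switch gene of sex determination, had assigned peaks. It was 1 of 7 protein-coding X-signal and dosage compensation genes, or 14.3%, beside 17.3% of all X genes. Its strongest of 2 lay 397 bp from a TSS (X 7096669, signal 226.4, rank 1432), with signals of 91.3 and 97.6 in replicates 1 and 2 and no shared summit in replicate 3. No peak was assigned to mof, which encodes the histone acetyltransferase of the MSL complex, nor to sisA, sc, run, upd1 or snf. The list also holds roX1 and roX2, whose RNAs are non-coding and could not receive a peak by the assignment used. The nearest summit to roX1 lay 5973 bp away (X 3868670, signal 413.9, shared with all 3 replicates), and that to roX2 lay 30157 bp away (signal 114.7, shared with none). Of the autosomal genes of the complex and its recruitment, msl-1, msl-2, msl-3, mle and Clamp, 0 of 5 had an assigned peak. The share over all autosomal protein-coding genes was 15.2%, so a count of 0 among 5 says little.

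Some of the transcription factor genes listed on X had assigned peaks and others had none, where 17.3% of all protein-coding X genes had one. Of 9 homeodomain genes 4 had one: ct (signal 304.8, in all 3 replicates), oc (266.0, in all 3 replicates), OdsH (118.9, in 1) and unc-4 (115.3, in none). The head gene oc had its assigned peak between genes, 6086 bp from its TSS, and signals of 102.4, 104 and 50.5 in replicates 1, 2 and 3. A stronger intergenic summit (X 8627399, signal 417.6, rank 542, in all 3 replicates) also had oc as its nearest gene. It lay 15777 bp from the TSS, over the 10 kb limit, and was not assigned. The other segmentation and head genes examined, gt, btd and run, had none. Of 3 forkhead genes CHES-1-like had peaks and fd3F and fd19B had none. Of 6 neural fate genes elav and ase (129.8, in replicate 1) had a peak, while ac, sc, l(1)sc and vnd had none. Of 4 ecdysone genes matched, Hr4 (688, in all 3 replicates) and usp (201.2, in replicate 1) had one.

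Among signalling genes, assigned peaks were counted in the same way, again beside 17.3% of all protein-coding X genes. In the BMP pathway 2 of 4 had one, brk (430.5, in all 3 replicates) and sog (268.4, in replicates 1 and 2). In Ras and Raf signalling, Raf had peaks and Dsor1 and csw had none. In the Wingless and Hedgehog list 2 of 6 had one, the kinase gene sgg (641.9, in all 3 replicates) and the receptor gene fz4 (169.1, in replicates 1 and 2). None of 4 JAK/STAT genes and none of 5 Notch pathway genes had an assigned peak. The receptor gene N nevertheless held a summit in an intron (X 3162543, signal 604.5, rank 262), shared with all 3 replicates at signals of 228.2, 235.3 and 130.9. It was assigned to no gene because the nearest TSS, that of CG18508, was 10597 bp away.

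Lists of adhesion, chromatin and ribosomal genes were counted next. In the adhesion and axon list 6 of 15 had one, led by kirre (656.2), sdk (510.4) and Ten-a (420.2), all shared with all 3 replicates. In the chromatin and Polycomb list 5 of 13 had one, led by ph-p (2767), its neighbour ph-d (672.4) and the acetyltransferase gene nej (290.4). Of 14 cytoplasmic ribosomal protein genes 7 had one, led by RpS28b (311.2), RpL17 (248.9) and RpL22 (233.6), and the strongest peak of each of the 7 lay at a promoter. Of 11 mitochondrial ribosomal protein genes, 31 chemosensory genes and 8 yolk and eggshell genes none had one. These lists are short and were described by counts only, beside 17.3% for all X genes. A count of 0 assigned peaks does not say that a gene's body held no summit: 5 listed genes without an assigned peak had at least 1 inside. Besides N these were hiw with 4 (strongest 491.6, in all 3 replicates), DIP-alpha with 1 (371.4, in all 3), Lim1 with 1 (300.4, in all 3) and br with 1 (240.6, in replicates 1 and 2).

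The signal ranks of X and autosomal peaks did not differ by the test used. The median signal was 185.5 on X (range 2.61 to 3101) and 181.4 on the autosomes (range 2.04 to 3031). The strongest 20% of the list held 20.2% of X peaks and 19.9% of autosomal peaks (odds ratio 1.02, Fisher's exact p = 0.875), and 51.8% of X peaks and 49.6% of autosomal peaks lay above the list's median (Fisher's exact p = 0.313). In the replicate lists the share in the strongest 20% was 19.6%, 21.6% and 17.0% on X, against 20.1%, 19.6% and 20.7% on the autosomes, a mean difference of −0.713 ± 2.88 points (SD, n = 3, exact sign-flip permutation p = 0.75). X was higher in replicate 2 and lower in replicates 1 and 3. By class, the median signal of X peaks was 201.4 at promoters, 188.5 in introns and 148.8 between genes.

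The share of peaks found again in the replicates did not differ by the test either. A summit within 250 bp was found in all 3 replicate lists for 43.9% of X peaks (307) and 43.5% of autosomal peaks (1282, odds ratio 1.02, Fisher's exact p = 0.865). No replicate list shared 9.16% of X peaks and 10.7% of autosomal peaks (Fisher's exact p = 0.242). Among intron peaks, 43.3% on X and 39.6% on autosomes were shared with all 3 (Fisher's exact p = 0.256). Weak entries beside a strong one occur on both: 70 X peaks had a signal under 50, of which 69 had a stronger summit within 1 median peak width, and among autosomal peaks 307 of 318 did.

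Further down the ranking the share of X fell. In the ranked lists of the replicates, which also hold peaks below the threshold, X held 19.0% ± 0.451 of the peaks at ranks 1 to 1000 and 20.1% ± 1.16 at ranks 1001 to 2000 (SD, n = 3). At ranks 6001 to 7000 it held 11.6% ± 0.907, and at ranks 14001 to 15000 it held 12.1% ± 1.76, against 17.6% of arm length. The values of replicates 1, 2 and 3 were 19.5%, 18.6% and 19.0% in the first bin and 14.0%, 11.9% and 10.5% in the last of these. The lowest value of the first bin was above the highest of the last, in a description with no test. The difference in intron share narrowed as well. In introns lay 47.1% ± 0.242 of X peaks and 29.9% ± 1.40 of autosomal peaks at ranks 1 to 1000, and 38.8% ± 5.15 of X peaks and 36.5% ± 1.82 of autosomal peaks at ranks 14001 to 15000.

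**Figure D5:**
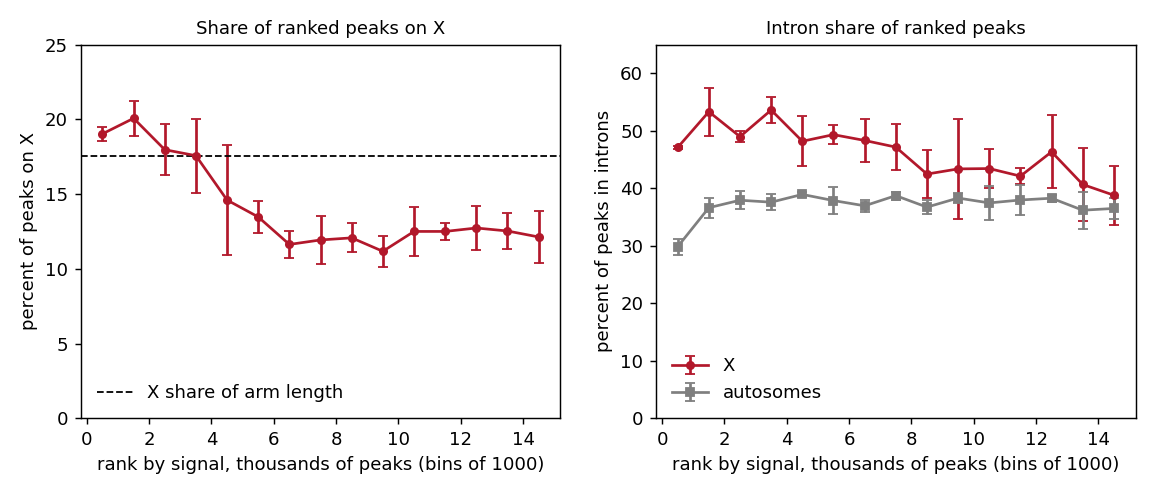
Left, percent of ranked peaks on X by rank in bins of 1000 peaks, mean ± SD of 3 replicate lists, with the X share of arm length (17.6%) as a dashed line. Right, percent of peaks in introns on X (red) and autosomes (grey) in the same bins. The mean X share falls below the share of length after about rank 4000, and the intron shares come closer at the weak end. The replicates differed in where this fall came: at ranks 4001 to 5000, X held 18.6%, 13.9% and 11.3% in replicates 1, 2 and 3.

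No short sequence word passed the test between X and autosomal summits of the conservative list. Within 50 bp of the summit a forkhead word was found at 21.6% of X peaks (151) and 24.1% of autosomal peaks (710, Fisher's exact p adjusted over 6 motifs = 0.992), where 12.9% of all X windows and 13.4% of all autosomal windows of that length hold one. The replicate lists gave 22.3% ± 0.312 on X and 26.6% ± 1.39 on the autosomes, a difference of −4.22 ± 1.24 points (SD, n = 3, exact sign-flip permutation p = 0.25), lower on X in each. The highest X share of forkhead words, 22.55% in replicate 2, lay under the lowest autosomal share, 25.49% in replicate 1. Each of 5 other words was searched on both strands. CGATA also occurs inside the longer word TATCGATA, so these are not independent.

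GAGAG, the core of the word read by GAGA factor, was at 8.87% of X summits and 9.24% of autosomal summits, under its share of all windows (11.5% on X, 11.4% on autosomes). CGATA was at 12.3% of X summits and 12.4% of autosomal summits, where 11.8% of X windows and 11.2% of autosomal windows hold it. TATCGATA was at 1.00% and 0.917% of X and autosomal summits (0.350% of X windows, 0.260% of autosomal windows), GGTCACACT at 0.286% and 0.441% (0.122% and 0.0930% of windows) and CAGGTAG at 0.429% and 0.306% (0.489% and 0.544% of windows). The lowest adjusted Fisher's exact p among the 6 was 0.992. A p that misses the threshold does not show that the shares were equal.

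Base composition was measured in the same windows. The windows around X summits were 66.8% A or T and those around autosomal summits 67.8%, while sequence 500 bp to the left was 57.4% on X and 55.9% on the autosomes. At promoters the summit windows were 66.0% on X and 68.3% on the autosomes. The classes outside promoters were closer, with 67.5% and 68% in introns and 67.2% and 67.3% between genes. In the replicate lists the X minus autosome difference at summits was −1.02, −0.891 and −1.56 points in replicates 1, 2 and 3 (mean −1.16 ± 0.355 SD, exact sign-flip permutation p = 0.25), and the X flanks were higher by 1.78 ± 0.422 points. The part of this in the forkhead share was not tested.

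X peaks were spread over the whole arm with a thin proximal end. Full bins of 1 Mb held from 1 to 50 peaks, with a median of 34. The bins at 2 to 3 Mb, which include ph-p, Raf, sgg, Ugalt and the start of kirre, and at 6 to 7 Mb held 50 each. Intron peaks were most numerous at 3 to 4 Mb (35), where the rest of kirre and Tlk lie, and at 7 to 8 Mb (32), where CG1677 and CHES-1-like lie. The bin at 22 to 23 Mb held 1 peak, and the widest gap between neighbouring summits was 1201988 bp, from 21631772 to 22833760. Such thin stretches were not particular to X. The widest gap was longer on 3L (2916796 bp) and 3R (3947512 bp) and shorter on 2L (556682 bp) and 2R (680616 bp). With the 2 richest intron bins left out, X still held 33.0 intron peaks per Mb against 25.5 on the autosomes (ratio 1.29, adjusted exact binomial p = 0.00143).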

How the data were processed

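Peak regions of anti-GFP ChIP-seq were analysed in 3 biological replicates of croc-eGFP whole embryos (1 group). Peak lists on dm6 were deposited by the authors, 1 ranked and 1 thresholded list per replicate, with a conservative list for the series. Their names refer to the irreproducible discovery rate (IDR), which scores how well a peak's rank repeats between lists. For the aligner and the peak caller, names and settings were not given in the sources used here. A signal column was deposited by the authors on a scale that no source used here names, and it served only to rank peaks inside a list. Without read counts the sequencing depth is unknown, and intervals cover counting error over peaks only.

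Arm lengths of the Release 6 sequence held every peak of the 6 arms. Genes were taken from the BDGP6.54 annotation (release 115, 13945 protein-coding genes on the arms). A summit was classed in the order promoter (within 500 bp of a protein-coding TSS), coding exon, 5' UTR, 3' UTR, other exon, intron, intergenic. Summits within 250 bp in different lists were counted as shared, and neighbouring peaks can share 1 replicate summit. X and autosomal peaks were compared by 2-sided Fisher's exact tests, and densities by 2-sided exact binomial tests, with Benjamini-Hochberg adjustment over 7 classes or 6 motifs and a threshold of 0.05. X minus autosome differences in the replicate lists were tested by an exact sign-flip permutation. Clopper-Pearson 95% intervals are given for shares. Genes on the text's lists were matched by symbol or synonym, and 1 listed ecdysone gene was not matched and was not analysed here. Named genes are those of the 20 strongest X peaks, the 5 X genes with the most assigned peaks, up to 3 members per list, taken by strongest peak, and roX1, roX2, mof and Sxl. Listed genes that held a summit inside but had no assigned peak were counted after seeing the data. Hosts with the most intron peaks, the other list members and genes named by Mb bin were named after their values were seen. The members, lists and tests were chosen with earlier results of these data known. The Fisher comparison was tested on simulated counts. Python 3.11.15, NumPy 2.4.6, SciPy 1.17.1 and matplotlib 3.10.9 were used. Alternatives were other promoter, sharing and assignment distances, other windows, peak subsets, leaving out chromosome 4, and leaving out each replicate, which meant keeping the conservative peaks shared with both other replicates.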

Additional observations from a re-analysis of the deposited data

Results flagged for a closer look

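The comparisons of X with the autosomes left out 6 conservative peaks on unplaced scaffolds, and the names of all of these scaffolds mark them as parts of X. They were set apart because they carry signal outside the main measurement. The strongest of them had a signal of 647.5 and rank 232 in the conservative list, and no control level for these scaffolds was analysed here. The lists of replicates 1, 2 and 3 held 3, 25 and 7 peaks on X-named scaffolds, so their number differed between replicates. The strongest of these ranked 234, 449 and 81 in the 3 lists.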

How the results depend on the processing

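No comparison of X with autosomes reversed its call under the alternatives tried. The higher intron share of X (15.2 points, from 11.1 to 17.8 over 12 alternatives, adjusted Fisher's exact p at most 1.15e-04) and its higher intron density (log2 ratio from 0.28 to 0.64 over 10 alternatives, adjusted exact binomial p at most 0.00597) kept their calls under each of them. The density ratio was smallest, 1.22, with Mb bins of fewer than 40 protein-coding genes left out. That setting kept 23 of 24 Mb bins of X and 94 of 114 of the autosomes. The intron density was then 36.5 per Mb on X and 29.9 on the autosomes. The lower promoter share fell short of the threshold at −4.46 points when the 2 Mb of X with the most intron peaks were left out (adjusted Fisher's exact p = 0.0587). The lower intergenic share did so at −3.94 points with 1 peak per gene (adjusted Fisher's exact p = 0.0817). The log2 ratio of intergenic density passed the threshold at −0.67 with promoters of 1000 bp and at −0.70 without gene-poor Mb, and it ranged from −0.65 to −0.43 when a replicate was left out, passing without replicate 3. The excess of genes with a peak was 0.0978 points with promoter peaks only and 1.14 points among peaks shared with all 3 replicates, neither passing, and it ranged from 1.03 to 1.84 points when a replicate was left out, failing without replicate 1. The causes were not tested. The leaving out of gene-poor Mb, of 2 Mb of X and of all but 1 peak per gene, and the intron strata, were added after seeing the data. No call on signal rank, replicate support or motifs was gained under any alternative. No paired analysis was possible because the series has 1 group and no same-numbered samples of another; X and autosomes were compared within each replicate list. The unknown depth limits what the absence of a peak can show.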
